A study of Mus musculus with 36 samples.

Results

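Bnip3, Bnip3l, Fam162a, Higd1a, Cox4i1, Cox4i2, Cox8a, Cox8b, Ndufa4l2 and Lonp1 are nuclear genes of mitochondrial proteins that stand close to the response to low oxygen. They were taken by symbol from the 2 expression tables of a mouse study, and all 10 were found among the 22558 genes of each table. They were picked out by name, with earlier results of these data known. The mice were C57BL/6 and received PBS as the control, DMOG (dimethyloxalylglycine, an analogue of 2-oxoglutarate that inhibits enzymes using this cosubstrate) or roxadustat (a more selective small-molecule inhibitor). Total RNA was sequenced after depletion of ribosomal RNA, with 6 libraries per treatment for each of 2 tissues, 36 libraries in all. The labels give neither dose, time, age nor genotype beyond the strain, and do not say whether the replicates are separate animals. A p-value here therefore speaks only of how much libraries vary within their groups, pooled over the groups of a fit.

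The tissue names go against the transcripts. In the 18 libraries labelled retina, the apolipoprotein gene Apoa1 reached a median of 9038 FPKM (fragments per kilobase of transcript, scaled to the size of the library) and the photoreceptor arrestin gene Sag 0.163 FPKM. In the 18 libraries labelled liver, Sag had a median of 2588 FPKM and Apoa1 0.278 FPKM. The libraries are therefore named here by the RNA they carry, liver RNA for the label retina and retina RNA for the label liver. Among the 8 liver markers, Alb and Trf were listed at 0 in all 18 libraries of liver RNA, and Afp, a gene of immature liver, had a median of 6968 FPKM. Ttr, Serpina1a and Fgb had medians of 7095, 1303 and 2768 FPKM there, while Trf had a median of 34.5 FPKM in retina RNA. The listed 0 of Alb and Trf is therefore not read as absence of these transcripts, and its cause was not tested. FPKM summed to between 433021 and 540324 per library of liver RNA, with 16029 to 16389 genes above 0, and to between 542785 and 617853 per library of retina RNA, with 16991 to 17424 genes above 0. Read counts were not in these tables. DMOG replicate 5 of the liver RNA lay within the PBS range, or just outside it, for Bnip3, Bnip3l, Fam162a, Higd1a and Ndufa4l2. The DMOG changes of these genes in liver RNA are therefore also given without it. Other results are given without it only where this is stated. Because it was singled out by these genes, fits without it are a description.

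Both compounds inhibit the prolyl hydroxylases that use oxygen to mark the alpha subunits of hypoxia-inducible factor (HIF) for degradation. Stabilised HIF binds the motif RCGTG in DNA and, besides glycolysis, changes the mitochondria. BNIP3 and BNIP3L (NIX) sit in the outer mitochondrial membrane and recruit LC3 and GABARAP proteins, so that the organelle is taken up by autophagy. Other HIF targets replace or adjust parts of the respiratory chain: COX4-2 can stand in for COX4-1 in cytochrome c oxidase while the protease LONP1 degrades COX4-1, and NDUFA4L2, a paralogue of NDUFA4, lowers respiration.

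The RefSeq promoter table (build GRCm38.p6) held 6 of the 10 genes: Bnip3, Fam162a, Higd1a, Cox8a, Cox8b and Lonp1. The 250 bases before the start of each were searched on both strands for ACGTG and GCGTG, the forms of the HIF core motif, and CACGTG, which holds ACGTG on both strands, counts as 2. Of 32851 promoters in the table, 38.6% held at least 1 match over the same length, 16.7% at least 2 and 1.01% at least 5. Fam162a and Lonp1 had 6 matches each, Bnip3 5, Higd1a 2, and Cox8a and Cox8b 1 each. The 4 windows below set 3 genes that rose in both tissues beside Cox8a, a constitutive subunit gene for which no change was called. Lonp1, with 6 matches, is not shown and was called with DMOG in liver RNA alone. The windows were picked as examples, and whether the number of matches goes with a rise was not tested. All 4 genes lie on the minus strand, the sequence is that of the gene's strand, and capitals mark the matches, with CACGT and CACGC the same motifs read on the other strand. Bnip3 lies at chr7:138909507-138909756, Fam162a at chr16:36071562-36071811, Higd1a at chr9:121857797-121858046 and Cox8a at chr19:7217617-7217866.
Bnip3: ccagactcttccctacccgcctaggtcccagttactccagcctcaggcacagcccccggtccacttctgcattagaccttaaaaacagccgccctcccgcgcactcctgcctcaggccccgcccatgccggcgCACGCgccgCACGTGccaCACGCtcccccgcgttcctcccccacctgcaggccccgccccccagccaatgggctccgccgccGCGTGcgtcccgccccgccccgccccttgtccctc
Fam162a: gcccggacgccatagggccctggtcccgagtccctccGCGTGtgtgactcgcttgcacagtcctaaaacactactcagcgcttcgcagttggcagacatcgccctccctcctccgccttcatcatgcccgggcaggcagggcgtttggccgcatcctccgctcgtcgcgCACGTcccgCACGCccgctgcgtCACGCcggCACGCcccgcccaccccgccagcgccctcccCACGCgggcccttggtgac
Higd1a: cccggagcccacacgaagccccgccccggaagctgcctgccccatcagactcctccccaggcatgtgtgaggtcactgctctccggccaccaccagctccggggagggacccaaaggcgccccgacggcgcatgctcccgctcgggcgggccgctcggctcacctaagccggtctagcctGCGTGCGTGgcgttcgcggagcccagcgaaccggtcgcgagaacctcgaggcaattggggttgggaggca
Cox8a: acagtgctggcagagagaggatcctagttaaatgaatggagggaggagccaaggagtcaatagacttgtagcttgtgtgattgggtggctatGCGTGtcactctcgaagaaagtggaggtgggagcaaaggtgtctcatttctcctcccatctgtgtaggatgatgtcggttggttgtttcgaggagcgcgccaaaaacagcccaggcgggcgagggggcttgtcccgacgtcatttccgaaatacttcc
In Bnip3, 4 of the 5 matches lay between 117 and 95 bases before the start, among them the pair in CACGTG. Fam162a held 5 of its 6 in the last 81 bases, and the 2 of Higd1a overlapped in GCGTGCGTG, 70 to 62 bases before the start. A match is a run of letters and no evidence of binding, and binding data were not used here.

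Levels were compared within each tissue as log2(FPKM + 0.5) with limma, with Benjamini-Hochberg adjustment over all genes tested and a call at an adjusted p under 0.05. In liver RNA, 9 of the 10 genes passed a floor of 0.5 FPKM on the mean level, and 6 of these rose with DMOG (Bnip3, Bnip3l, Fam162a, Higd1a, Ndufa4l2 and Lonp1), where 8.26% of all 12657 genes were called higher and 11.7% lower. With roxadustat 5 rose (Bnip3, Bnip3l, Fam162a, Higd1a and Cox4i2), where 2.16% of all genes were called higher and 2.02% lower. In retina RNA all 10 were tested. With DMOG Cox4i2 rose and Cox8b fell, where 0.370% of 13779 genes were called higher and 0.697% lower. With roxadustat 5 rose (Bnip3, Bnip3l, Fam162a, Higd1a and Ndufa4l2), where 1.69% of all genes were called higher and 0.653% lower. The median log2 fold change over the tested genes of the group was 1.07 and 0.83 in liver RNA and 0.14 and 0.49 in retina RNA, for DMOG and roxadustat in this order, while the median over all genes lay between -0.00076 and 0.01 in these 4 comparisons.

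**Figure D1:**
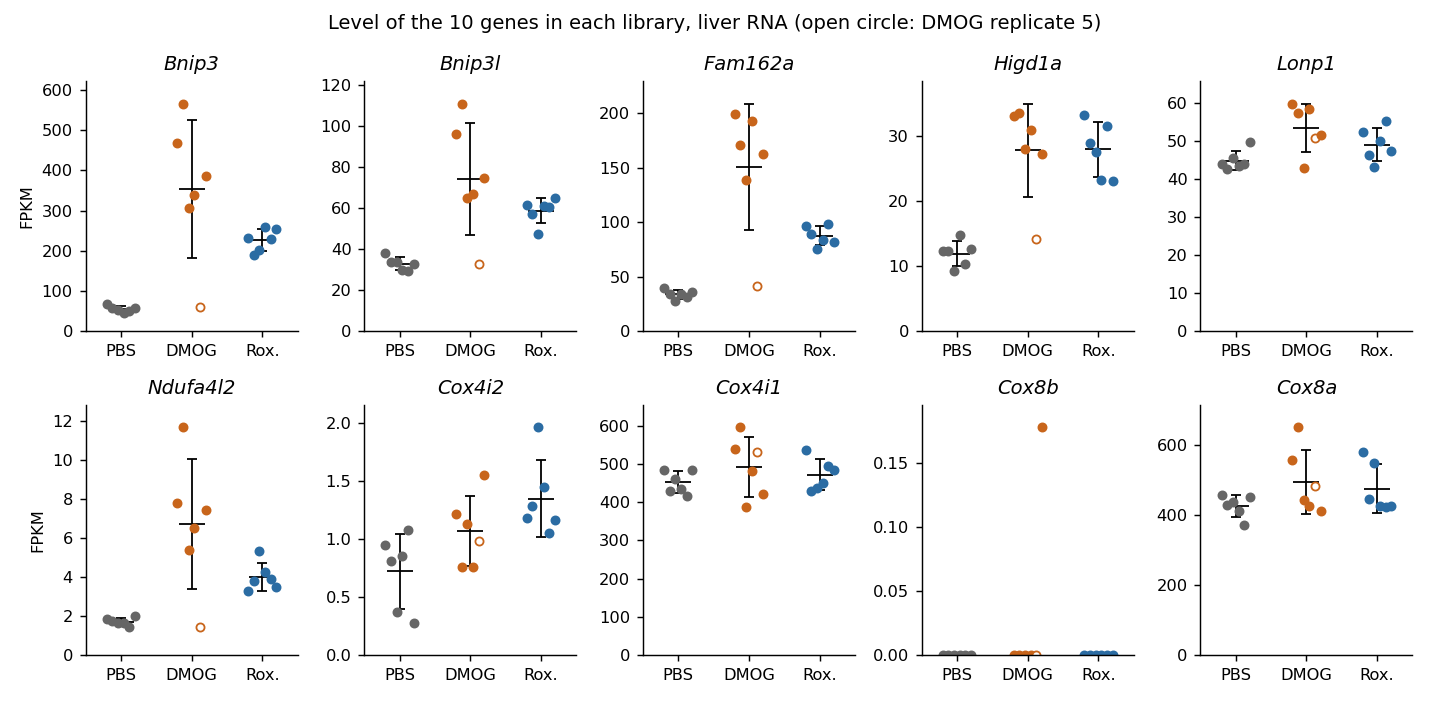
Level of each of the 10 genes in the 18 libraries of liver RNA, in FPKM on linear axes from 0. Points are libraries, horizontal bars and whiskers the mean and SD of 6 libraries (left out for Cox8b, which is listed at 0 in 17 of 18), and the open circle is DMOG replicate 5, whose Bnip3 level of 59.2 FPKM lies within the PBS range while the other 5 DMOG libraries reach 307 to 565 FPKM.

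The gene with the largest fold change in liver RNA among the 10 was Bnip3. It ranged from 45.5 to 66.8 FPKM with PBS (median 56.0), from 59.2 to 565 FPKM with DMOG (median 362) and from 188 to 259 FPKM with roxadustat (median 230). Each of the 6 roxadustat libraries and 5 of the 6 DMOG libraries lay above every PBS library, and DMOG replicate 5, at 59.2 FPKM, lay among them. Among all genes in liver RNA, 1.33% had all 6 DMOG libraries above all 6 PBS libraries, and 2.76% had this for roxadustat. The log2 fold change was 2.39 ± 0.36 (SE, adjusted p = 0.000792) with DMOG, 5.26-fold on the scale of FPKM + 0.5, and 2.02 ± 0.36 (adjusted p = 0.00336) with roxadustat, 4.06-fold. The DMOG change was 2.85 ± 0.14 without DMOG replicate 5. In bulk tissue, more cells with a transcript and more of it per cell cannot be told apart.

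Bnip3l encodes the receptor that is also known for clearing mitochondria from maturing red cells. Its range in liver RNA was 29.3 to 38.0 FPKM with PBS (median 33.0), 32.5 to 111 FPKM with DMOG (median 70.6) and 47.5 to 64.9 FPKM with roxadustat (median 60.6). DMOG replicate 5 again lay inside the PBS range, and the groups were otherwise separate from PBS. The log2 fold changes were 1.07 ± 0.20 (adjusted p = 0.00167) and 0.83 ± 0.20 (adjusted p = 0.0229). Without DMOG replicate 5 the DMOG change was 1.29 ± 0.12. The roxadustat call was lost without PBS replicate 4 or roxadustat replicate 1 (adjusted p up to 0.0517), while without DMOG replicate 5 the same change had an adjusted p of 0.000178. The summed level of 9 erythroid markers in liver RNA ranged from 950 to 1972 FPKM with PBS, 1228 to 3325 FPKM with DMOG and 1241 to 2431 FPKM with roxadustat, with none of the 9 called in either comparison and none at an unadjusted p under 0.05. Their log2 fold changes ran from 0.01 to 2.16 with DMOG and from -0.16 to 2.90 with roxadustat.

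**Figure D2:**
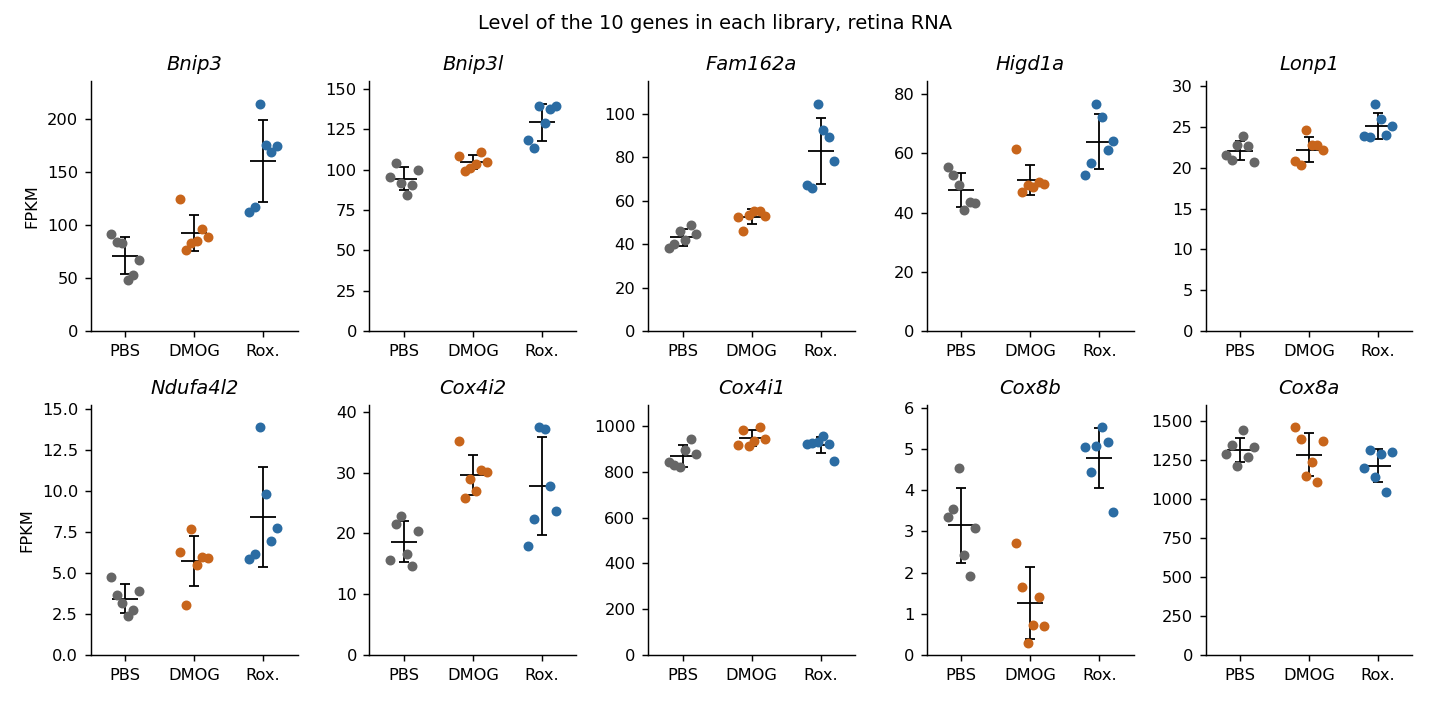
Level of each of the 10 genes in the 18 libraries of retina RNA, in FPKM on linear axes from 0, drawn as for liver RNA. All 6 roxadustat libraries lie above every PBS library for Bnip3, Bnip3l, Fam162a and Ndufa4l2, the 6 DMOG libraries lie above every PBS library for Cox4i2, and 5 of 6 lie below every PBS library for Cox8b.

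In retina RNA both receptors rose with roxadustat and neither was called with DMOG. Bnip3 ranged from 48.7 to 91.6 FPKM with PBS (median 75.0), from 76.9 to 124 FPKM with DMOG (median 87.0) and from 112 to 214 FPKM with roxadustat (median 172). The roxadustat libraries did not overlap with PBS, whereas 2 of 6 DMOG libraries exceeded the highest PBS library. Separation of all 6 roxadustat libraries above PBS was seen for 1.44% of all genes. The log2 fold change of Bnip3 was 1.16 ± 0.17 (adjusted p = 0.000446) with roxadustat and 0.39 ± 0.17 (adjusted p = 0.326) with DMOG, the latter with a 95% interval of 0.03 to 0.76. Bnip3l ranged from 84.3 to 104 FPKM with PBS, 99.2 to 111 FPKM with DMOG and 113 to 140 FPKM with roxadustat. This small shift held in every roxadustat library and amounted to a log2 fold change of 0.45 ± 0.06 (adjusted p = 8.24e-05), against 0.15 ± 0.06 (adjusted p = 0.254) with DMOG.

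Red cell transcripts moved in the same retina libraries. The summed level of the erythroid markers was 11.7 to 20.7 FPKM with PBS, 24.3 to 49.4 FPKM with DMOG and 14.8 to 57.8 FPKM with roxadustat, so that every DMOG library exceeded every PBS library. Of 4 such markers tested, Hbb-b1, a beta globin gene, rose with roxadustat (log2 fold change 0.89 ± 0.22, adjusted p = 0.036), and its DMOG value was 0.90 ± 0.22 (adjusted p = 0.0527). No erythroid marker was at 0 in all libraries. Their part in the Bnip3l values was not tested.

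Other genes of mitophagy were called at rates near those of all genes with DMOG in liver RNA. A list of 23 other mitophagy receptors and autophagy adaptors had 22 tested genes in liver RNA, of which 1 rose and 3 fell with DMOG and none was called with roxadustat (limma, 3 at an unadjusted p under 0.05). Over all genes 8.26% were called higher and 11.7% lower with DMOG. Fundc1, a further receptor of hypoxic mitophagy, rose from 7.62 ± 0.648 to 9.30 ± 1.35 FPKM (SD over 6 libraries each), with a log2 fold change of 0.26 ± 0.09 (adjusted p = 0.0493). Sqstm1, the gene of the cargo adaptor p62, fell by 0.36 on the log2 scale (adjusted p = 0.00847), Ulk1, the gene of a kinase that starts autophagy, by 0.44 (adjusted p = 0.0193) and the adaptor gene Optn by 0.31 (adjusted p = 0.032). These counts became 1 higher and 6 lower without DMOG replicate 5, where 17.3% of all genes were called higher and 18.1% lower.

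Pink1, the gene of the kinase that marks damaged mitochondria for the ligase parkin, had log2 fold changes of -0.09 ± 0.12 (adjusted p = 0.602) with DMOG and -0.11 ± 0.12 (adjusted p = 0.664) with roxadustat in liver RNA. Park2, which encodes parkin, was too low to test there. In retina RNA all 23 were tested and none was called with either compound, with 3 and 6 at an unadjusted p under 0.05. Pink1 had 0.06 ± 0.06 with DMOG and -0.03 ± 0.06 with roxadustat in retina RNA, and Park2 had 0.08 ± 0.09 and -0.05 ± 0.09. The list's median log2 fold change lay between -0.06 and 0.05 in the 4 comparisons with PBS.

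Fam162a, which encodes a small mitochondrial protein induced by low oxygen and linked to hypoxic cell death, rose in 3 of the 4 comparisons. In liver RNA it ranged from 28.1 to 39.8 FPKM with PBS (median 34.1), from 41.6 to 199 FPKM with DMOG (median 166) and from 75.7 to 98.3 FPKM with roxadustat (median 86.1). Even DMOG replicate 5, at 41.6 FPKM, exceeded every PBS library for this gene. The log2 fold changes were 1.99 ± 0.27 (adjusted p = 0.000792) with DMOG and 1.36 ± 0.27 (adjusted p = 0.00628) with roxadustat, and 2.33 ± 0.10 with DMOG without replicate 5. In retina RNA the ranges were 38.3 to 48.8 FPKM with PBS, 46.2 to 55.5 FPKM with DMOG and 66.0 to 105 FPKM with roxadustat. Roxadustat stood apart from both other groups (log2 fold change against PBS 0.92 ± 0.09, adjusted p = 6.58e-06), and the DMOG value was 0.28 ± 0.09 (adjusted p = 0.18, 95% interval 0.08 to 0.48), with 5 of 6 DMOG libraries above every PBS library.

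Higd1a encodes an inner membrane protein that associates with cytochrome c oxidase. Its liver RNA levels were 9.31 to 14.7 FPKM with PBS (median 12.2), 14.1 to 33.4 FPKM with DMOG (median 29.4) and 23.1 to 33.2 FPKM with roxadustat (median 28.1). Every treated library except DMOG replicate 5, at 14.1 FPKM, lay above every PBS library. The log2 fold changes were 1.15 ± 0.17 (adjusted p = 0.000792) with DMOG and 1.19 ± 0.17 (adjusted p = 0.000739) with roxadustat, a difference of 0.05 with a 95% interval of -0.31 to 0.40. Without DMOG replicate 5 the DMOG change was 1.33 ± 0.11. In retina RNA it started higher, at 41.0 to 55.4 FPKM with PBS, and reached 52.7 to 76.7 FPKM with roxadustat, 5 of 6 libraries above every PBS library. That change was 0.42 ± 0.09 (adjusted p = 0.0177), lost without roxadustat replicate 3 (adjusted p = 0.0503) or with 2 groups per fit (adjusted p = 0.0556), and the DMOG value was 0.10 ± 0.09 (adjusted p = 0.635). The 2 tables were normalised separately, so a level set across the tissues is a description.

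Of 3 further genes of the HIG1 domain family, 1 was tested in liver RNA and 2 in retina RNA, and none was called. Higd2a, which encodes the family member of cytochrome c oxidase assembly, had 87.7 ± 9.81 FPKM with PBS in liver RNA and log2 fold changes of 0.01 ± 0.09 with DMOG and 0.03 ± 0.09 with roxadustat. In retina RNA its values were 0.11 ± 0.06 and 0.08 ± 0.06. Higd1b, tested in retina RNA alone, had -0.05 ± 0.15 and 0.27 ± 0.15. By limma none of them reached an unadjusted p under 0.05 in a comparison with PBS.

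**Figure D3:**
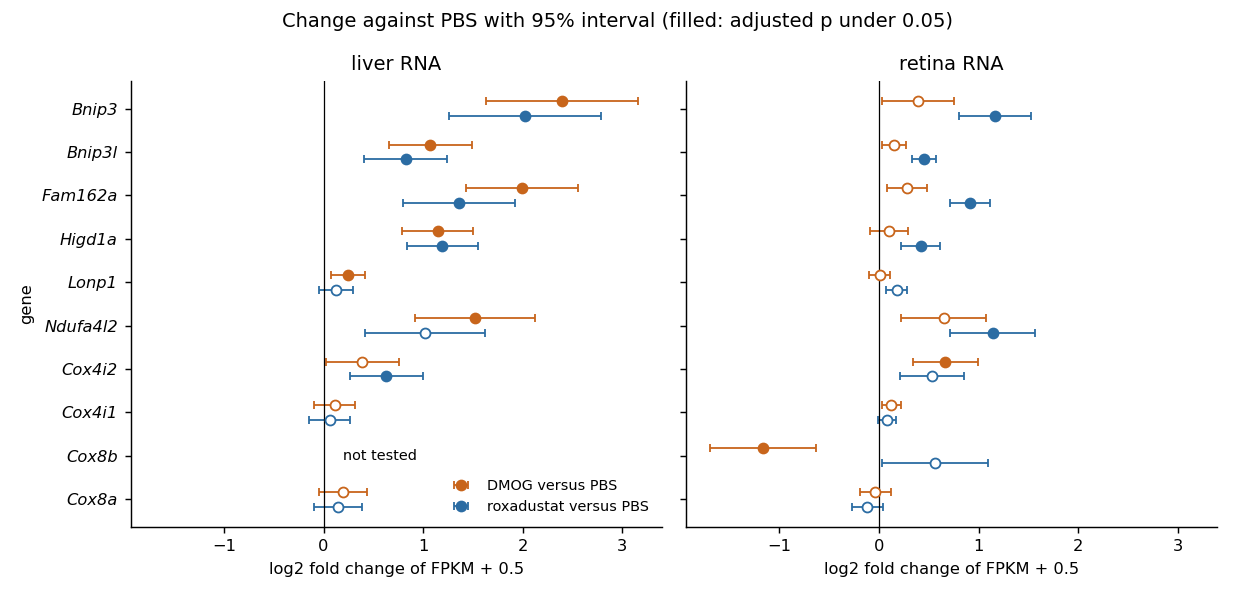
Log2 fold change of FPKM + 0.5 against PBS for the 10 genes in liver RNA (left) and retina RNA (right), with 95% intervals from limma. Filled points have an adjusted p under 0.05. In liver RNA the DMOG and roxadustat intervals of Bnip3, Bnip3l, Fam162a, Higd1a and Ndufa4l2 all lie above 0, and in retina RNA the 2 compounds lie on opposite sides of 0 for Cox8b.

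Ndufa4l2 was a low transcript in both tissues. In liver RNA it ranged from 1.45 to 2.01 FPKM with PBS (median 1.69), from 1.43 to 11.7 FPKM with DMOG (median 6.98) and from 3.28 to 5.31 FPKM with roxadustat (median 3.84). DMOG replicate 5, at 1.43 FPKM, was below every PBS library, while all other treated libraries were above them. The log2 fold change with DMOG was 1.52 ± 0.29 (adjusted p = 0.00183), and 1.86 ± 0.14 without replicate 5. The roxadustat value of 1.02 ± 0.29 just missed the threshold (adjusted p = 0.053) although the 6 libraries did not overlap with PBS. The fit shares 1 error over the 3 groups, and roxadustat was called once DMOG replicate 5 was left out (adjusted p = 0.000105), where 4.12% of all genes were called higher, and also without DMOG replicate 2. It was called too with a pseudocount of 0.1 (adjusted p = 0.0466), each library scaled to an equal total (0.0458), median ratio scaling (0.0465), 2 groups per fit (2.29e-05) or sex as a covariate (0.0351).

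In retina RNA Ndufa4l2 ranged from 2.38 to 4.77 FPKM with PBS (median 3.42), from 3.08 to 7.68 FPKM with DMOG (median 5.94) and from 5.86 to 13.9 FPKM with roxadustat (median 7.36). It rose with roxadustat (log2 fold change 1.14 ± 0.20, adjusted p = 0.00323). With DMOG 5 of 6 libraries lay above every PBS library, and the change of 0.65 ± 0.20 was not called (adjusted p = 0.147, 95% interval 0.22 to 1.08). Its abundant paralogue Ndufa4 was not called in either tissue, with 367 ± 23.3 FPKM in liver RNA and 908 ± 49.1 FPKM in retina RNA under PBS and log2 fold changes between -0.11 and 0.17. As a share of Ndufa4, Ndufa4l2 made up 0.467% ± 0.0486 (SD, n = 6) with PBS, 1.66% ± 0.802 with DMOG and 1.04% ± 0.245 with roxadustat in liver RNA. In retina RNA the shares were 0.38% ± 0.0978, 0.636% ± 0.163 and 0.992% ± 0.32. The highest share in any library was 2.72%, in liver RNA with DMOG. These shares are a description of the 2 levels and were not tested.

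Cox4i2 is the alternative form of subunit 4. In liver RNA it was barely above the filter, at 0.273 to 1.08 FPKM with PBS (median 0.832), 0.761 to 1.55 FPKM with DMOG (median 1.06) and 1.05 to 1.96 FPKM with roxadustat (median 1.23). Of the roxadustat libraries 5 lay above every PBS library, and of the DMOG libraries 3. The roxadustat change of 0.63 ± 0.17 passed narrowly (adjusted p = 0.0486), and the DMOG value was 0.39 ± 0.17 (adjusted p = 0.124). That roxadustat call was lost without PBS replicate 2, 3, 4 or 6, DMOG replicate 1 or 3, or roxadustat replicate 1, 2, 3, 4 or 6, with adjusted p up to 0.116. It was also lost under 5 of 10 other settings (adjusted p 0.055 to 0.0953), which were a pseudocount of 0.1, no filter on low values, each library scaled to an equal total, sex as a covariate and the replicate number as a block.

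In retina RNA Cox4i2 was a moderate transcript of 14.7 to 22.8 FPKM with PBS (median 18.5). All 6 DMOG libraries, at 25.8 to 35.2 FPKM, lay above every PBS library, which was seen for 0.523% of all genes. Roxadustat libraries spread from 17.9 to 37.5 FPKM, with 4 above every PBS library. The log2 fold change with DMOG was 0.67 ± 0.16 (adjusted p = 0.0429), a call lost without PBS replicate 1, 2, 5 or 6, DMOG replicate 1, 2, 4, 5 or 6, or roxadustat replicate 2, 5 or 6 (adjusted p up to 0.101). It was also lost with no filter on low values (adjusted p = 0.068), robust empirical Bayes (0.0601), sex as a covariate (0.0548) and the replicate number as a block (0.0669). Roxadustat gave 0.53 ± 0.16 (adjusted p = 0.0776), called without roxadustat replicate 1 (adjusted p = 0.0161). The difference between the compounds, roxadustat minus DMOG, was -0.13 ± 0.16 (95% interval -0.46 to 0.19).

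Its abundant constitutive partner Cox4i1 was not called in any comparison. In liver RNA it ranged from 417 to 486 FPKM with PBS, 387 to 596 FPKM with DMOG and 430 to 538 FPKM with roxadustat. In retina RNA the ranges were 821 to 942 FPKM, 914 to 994 FPKM and 849 to 957 FPKM. The log2 fold changes lay between 0.06 and 0.13, and the DMOG value in retina RNA (0.13 ± 0.04) had an unadjusted p of 0.0112. Cox4i2 was 0.162% ± 0.0779 (SD, n = 6), 0.226% ± 0.0899 and 0.29% ± 0.0886 of Cox4i1 in liver RNA with PBS, DMOG and roxadustat. In retina RNA it was 2.16% ± 0.477, 3.13% ± 0.405 and 3.01% ± 0.819.

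In many tissues Cox4i2 and Ndufa4l2 are known from pericytes, the contractile cells on capillaries. The summed level of 8 pericyte markers in retina RNA was 105 to 158 FPKM with PBS, 78.1 to 141 FPKM with DMOG and 93.9 to 146 FPKM with roxadustat, and none of the 6 markers tested was called with either compound (1 and 0 at an unadjusted p under 0.05). The median sum was 133 FPKM with PBS, 85.6 FPKM with DMOG and 121 FPKM with roxadustat. The ranges of the 3 groups overlapped, and the part of these cells in the Cox4i2 and Ndufa4l2 values was not tested. Sums of 6 smooth muscle markers in retina RNA were 19.0 to 27.9 FPKM, 13.4 to 19.8 FPKM and 15.8 to 19.7 FPKM, with none of 4 tested markers called. In liver RNA the sums, led by the hepatocyte gene Vtn, were 1488 to 1937 FPKM, 1320 to 2022 FPKM and 1422 to 1831 FPKM. Of 7 pericyte markers tested there, 2 rose with DMOG, where 8.26% of all genes were called higher and 11.7% lower. With roxadustat 1 rose and 1 fell, where 2.16% of all genes were called higher and 2.02% lower. Kcnj8, a potassium channel gene of pericytes, rose with both compounds (0.60 ± 0.14 and 0.77 ± 0.14, adjusted p = 0.0061 and 0.00362). Abcc9, the gene of its partner subunit, rose with DMOG (0.36 ± 0.12, adjusted p = 0.0488), and Pdgfrb fell with roxadustat (-0.33 ± 0.07, adjusted p = 0.00799). The part of these cells in the liver values was not tested.

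**Figure D4:**
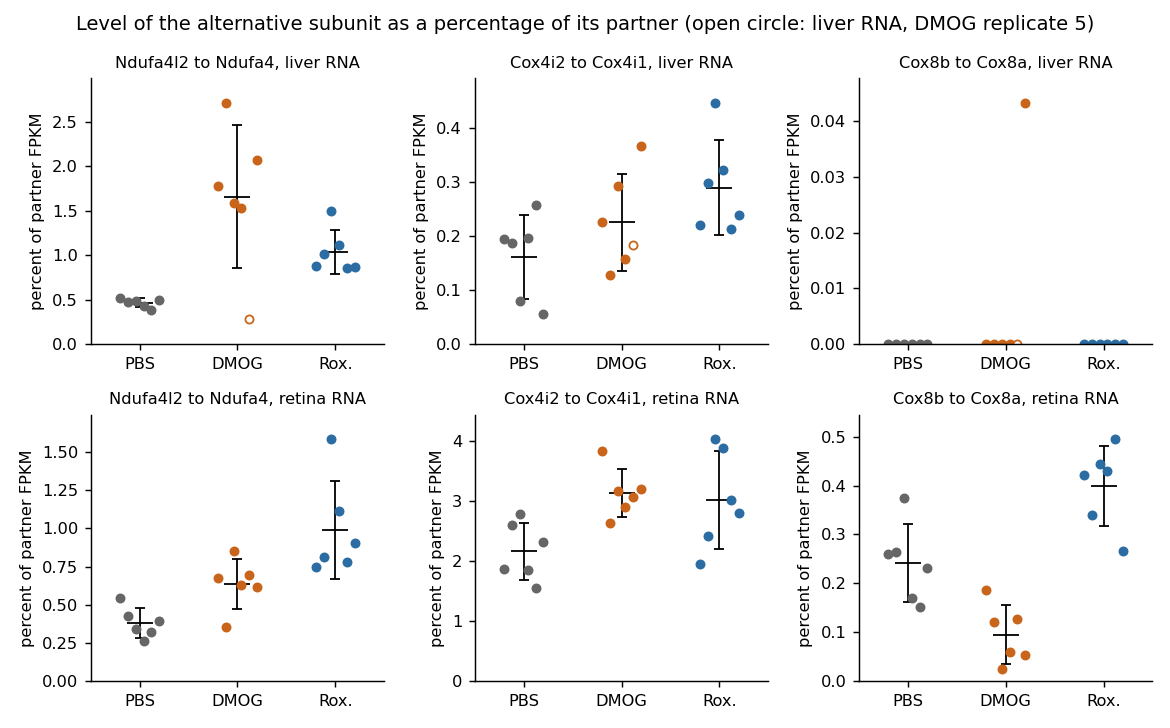
Level of each alternative subunit as a percentage of the FPKM of its constitutive partner, in liver RNA (top) and retina RNA (bottom). Points are libraries, bars and whiskers the mean and SD of 6 libraries (left out for Cox8b in liver RNA), and the open circle is DMOG replicate 5 of the liver RNA. Cox8b in retina RNA is 0.0254% to 0.187% of Cox8a with DMOG and 0.267% to 0.495% with roxadustat.

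Cox8b, the form of subunit 8 known from striated muscle and brown fat, was the only gene of the 10 that fell. In retina RNA it ranged from 1.92 to 4.54 FPKM with PBS (median 3.22), from 0.292 to 2.72 FPKM with DMOG (median 1.07) and from 3.47 to 5.52 FPKM with roxadustat (median 5.06). With DMOG 5 of 6 libraries lay below every PBS library, with roxadustat 4 of 6 lay above, and the groups of the 2 compounds did not overlap. The log2 fold change with DMOG was -1.17 ± 0.25 (adjusted p = 0.032), and that with roxadustat 0.56 ± 0.25 (adjusted p = 0.257). The DMOG call was lost without PBS replicate 1, 2, 3 or 6 or DMOG replicate 4, 5 or 6 (adjusted p up to 0.0945). It was also lost with no filter on low values (adjusted p = 0.0534), with 2 groups per fit (adjusted p = 0.11) and with the replicate number as a block (adjusted p = 0.0526). In liver RNA Cox8b was listed at 0 in 17 of 18 libraries and at 0.178 FPKM in DMOG replicate 6, so it was not tested.

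Cox8a, the constitutive form, was not called in any comparison and ranged from 372 to 651 FPKM in liver RNA and from 1042 to 1457 FPKM in retina RNA. Its log2 fold changes were 0.20 ± 0.11 and 0.15 ± 0.11 in liver RNA, and -0.04 ± 0.07 and -0.12 ± 0.07 in retina RNA, with DMOG and roxadustat. The share of Cox8b to Cox8a in retina RNA was 0.242% ± 0.0803 (SD, n = 6) with PBS, 0.095% ± 0.0599 with DMOG and 0.4% ± 0.0823 with roxadustat. Summed levels of 8 striated muscle markers in retina RNA were 5.33 to 7.87 FPKM with PBS, 5.21 to 6.62 FPKM with DMOG and 5.20 to 8.10 FPKM with roxadustat, with none of 3 tested markers called and none at 0 in all libraries. Those of 4 brown fat markers were 1.07 to 1.99 FPKM, 0.851 to 1.17 FPKM and 0.769 to 1.42 FPKM. The ranges of these sums overlapped between DMOG and roxadustat, and only 1 brown fat marker was high enough to test. The part of such cells in the Cox8b values was not tested.

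The other subunits of cytochrome c oxidase gave no call. Of 15 further subunit genes, 12 were tested in liver RNA and 13 in retina RNA, and none was called with either compound by limma (4 and 0 at an unadjusted p under 0.05 in liver RNA, 3 and 2 in retina RNA). Over all genes in liver RNA, 8.26% were called higher and 11.7% lower with DMOG, and 2.16% and 2.02% with roxadustat. In retina RNA the shares were 0.370% and 0.697% with DMOG, and 1.69% and 0.653% with roxadustat. Their median log2 fold change with DMOG in liver RNA was 0.18, against 0.01 over all genes. Cox7a2 and Cox7c, 2 small nuclear-encoded subunits, had 0.24 ± 0.09 (adjusted p = 0.0719) and 0.24 ± 0.09 (adjusted p = 0.0755) there. Without DMOG replicate 5, 1 gene of the list was called, where 17.3% of all genes were called higher and 18.1% lower. The muscle-type subunit Cox7a1 had -0.15 ± 0.19 and 0.19 ± 0.19 in liver RNA and -0.07 ± 0.14 and 0.24 ± 0.14 in retina RNA. Cox6a2, also of the muscle type, had 0.753 ± 0.483 FPKM with PBS, 0.334 ± 0.134 FPKM with DMOG and 0.426 ± 0.197 FPKM with roxadustat in retina RNA (log2 fold change with DMOG -0.53 ± 0.19, adjusted p = 0.223).

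Assembly factors of cytochrome c oxidase moved in both directions with DMOG in liver RNA. Of 16 tested genes 3 rose and 4 fell, where 8.26% of all genes were called higher and 11.7% lower, and none was called with roxadustat there (3 at an unadjusted p under 0.05). Cox17 and Cox11, which deliver copper to the enzyme, rose by 0.28 ± 0.07 (adjusted p = 0.0137) and 0.32 ± 0.09 (adjusted p = 0.0184). Coa6, listed in the table under an older symbol, and Cox15, the gene of a heme A synthase, fell by 0.46 (adjusted p = 0.0174) and by 0.28 (adjusted p = 0.0265) on the log2 scale. The other three, named after their values were seen because the counts are small, were Coa5 (0.22, also under an older symbol), Surf1 (-0.20) and Taco1 (-0.41). In retina RNA none of the 16 was called with either compound (3 and 2 at an unadjusted p under 0.05).

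Lonp1 encodes the matrix protease that removes COX4-1 in low oxygen. In liver RNA it ranged from 42.5 to 49.7 FPKM with PBS (median 43.9), from 43.0 to 59.7 FPKM with DMOG (median 54.4) and from 43.0 to 55.2 FPKM with roxadustat (median 48.6). It rose with DMOG by a log2 fold change of 0.24 ± 0.08 (adjusted p = 0.0399), with 5 of 6 libraries above every PBS library, here DMOG replicate 5 (50.8 FPKM) among them and replicate 3 (43.0 FPKM) not. This was the smallest of the calls among the 10 genes in liver RNA, and it was lost without PBS replicate 1, 2, 3, 4 or 5 or DMOG replicate 1, 2, 4 or 6 (adjusted p up to 0.0947). It was also lost with 2 groups per fit (adjusted p = 0.0685) and with each library scaled to an equal total, where the change was 0.15 (adjusted p = 0.0579). With roxadustat the value was 0.12 ± 0.08 (adjusted p = 0.431). In retina RNA its ranges were 20.7 to 23.8 FPKM, 20.3 to 24.6 FPKM and 23.7 to 27.8 FPKM with PBS, DMOG and roxadustat, with a log2 fold change of 0.18 ± 0.05 for roxadustat (adjusted p = 0.0753), called without PBS replicate 4 (adjusted p = 0.0443) or with the replicate number as a block (adjusted p = 0.0161).

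Of 14 other mitochondrial proteases and chaperones, all tested, Clpx alone was called with DMOG in liver RNA. Over all genes 8.26% were called higher and 11.7% lower there, so this count is not above the share of all genes. Clpx, the gene of the unfoldase of the ClpXP protease, rose from 86.0 ± 15.2 to 123 ± 15.4 FPKM (SD over 6 libraries each), and its log2 fold change was 0.52 ± 0.11 (adjusted p = 0.00295). A further 2 genes of the list were called lower without DMOG replicate 5, where 18.1% of all genes were called lower. No gene of this list was called with roxadustat in liver RNA (1 at an unadjusted p under 0.05) or with either compound in retina RNA (2 and 4). Among 13 genes of mitochondrial fission, fusion and biogenesis, 3 rose with DMOG in liver RNA, where 8.26% of all genes were called higher. Ppargc1a, the coactivator gene of mitochondrial biogenesis, rose by 0.68 ± 0.15 (adjusted p = 0.0054), Nrf1, a transcription factor gene of the same programme, by 0.22 ± 0.07 (adjusted p = 0.0263), and Mff, a fission factor gene, by 0.18 ± 0.05 (adjusted p = 0.0266). None of the 13 was called in the other 3 comparisons with PBS (0 with roxadustat in liver RNA, and 0 and 1 in retina RNA, at an unadjusted p under 0.05).

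Other known HIF targets were read beside these genes. Of 12 of them 11 rose in liver RNA with each compound, whereas 2 rose in retina RNA with DMOG (Ldha and Ankrd37) and 9 with roxadustat. Over all genes 8.26% and 2.16% were called higher in liver RNA, and 0.370% and 1.69% in retina RNA, with DMOG and roxadustat. In liver RNA Pdk1, the gene of a kinase that closes pyruvate dehydrogenase, rose by 1.44 with DMOG and 1.60 with roxadustat on the log2 scale, Vegfa by 1.09 and 0.73, and the prolyl hydroxylase gene Egln3 by 2.51 and 1.38. In retina RNA Pdk1 had 0.46 ± 0.15 (adjusted p = 0.162) with DMOG and rose by 1.48 ± 0.15 (adjusted p = 4.48e-06) with roxadustat. Vegfa had 0.29 ± 0.17 and rose by 0.78 ± 0.17 (adjusted p = 0.0181), and Egln3 had 0.17 ± 0.14 and 0.36 ± 0.14 there and was not called.

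The compounds were then compared with each other, which rests on the labelled treatments alone because no dose or time is given. In retina RNA 4 of the 10 genes were higher with roxadustat than with DMOG, where 0.980% of all genes were called higher. They were Fam162a (log2 difference 0.63 ± 0.09, adjusted p = 0.000794), Bnip3l (0.30 ± 0.06, adjusted p = 0.0085), Bnip3 (0.77 ± 0.17, adjusted p = 0.0272) and Cox8b (1.73 ± 0.25, adjusted p = 0.00067). All 6 roxadustat libraries exceeded all 6 DMOG libraries for Fam162a, Bnip3l and Cox8b, as for 1.20% of all genes, and 4 of 6 did for Bnip3. The Bnip3 call was lost without DMOG replicate 2, 3, 4 or 6 or roxadustat replicate 3, 4, 5 or 6 (adjusted p up to 0.0818), and was 0.0765 with the replicate number as a block. Not called were Ndufa4l2 (0.49 ± 0.20, adjusted p = 0.36, 95% interval 0.07 to 0.92), Higd1a (0.32 ± 0.09, adjusted p = 0.125, and 0.0476 without DMOG replicate 1) and Lonp1 (0.17 ± 0.05, adjusted p = 0.146, and 0.0292 with the block).

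In liver RNA none of the 9 tested genes differed between the compounds at the threshold (limma, 1 at an unadjusted p under 0.05, and 2.99% of all genes called). That 1 gene was Fam162a, with -0.63 ± 0.27 for roxadustat minus DMOG and an adjusted p of 0.213. The 95% intervals remained wide, from -1.14 to 0.39 for Bnip3 and from -1.11 to 0.10 for Ndufa4l2. When DMOG replicate 5 was left out, 4 genes were lower with roxadustat than with DMOG, where 7.14% of all genes were called lower. These were Fam162a (-0.97 ± 0.10, adjusted p = 9.74e-06), Bnip3 (-0.83 ± 0.14, adjusted p = 0.000663), Ndufa4l2 (-0.85 ± 0.14, adjusted p = 0.00071) and Bnip3l (-0.46 ± 0.12, adjusted p = 0.0172). Higd1a, at -0.13 ± 0.11, was not called there. DMOG replicate 5 was singled out by its low levels of these same genes, so the calls without it are a description and no independent support.

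Finally the responses were compared between the tissues, each taken within its own table, over the 11101 genes tested in both. The labels do not say whether the 2 tissues came from the same animals. All 36 libraries were treated as independent, so the p-values of the tissue differences leave out any such pairing. The DMOG response was larger in liver RNA for 4 of 9 genes, where 6.97% of all genes were called in this direction. The differences in log2 fold change, liver minus retina, were 2.00 ± 0.42 for Bnip3 (adjusted p = 0.00152), 0.92 ± 0.21 for Bnip3l (adjusted p = 0.00352), 1.71 ± 0.29 for Fam162a (adjusted p = 0.000315) and 1.05 ± 0.20 for Higd1a (adjusted p = 0.000775). Leaving out DMOG replicate 5 of the liver RNA gave 6 genes, where 13.3% of all genes were called, with Ndufa4l2 (1.21 ± 0.26, adjusted p = 0.000671) and Lonp1 (0.25 ± 0.10, adjusted p = 0.0478) as the further ones. That library was singled out by its low levels of Bnip3, Bnip3l, Fam162a, Higd1a and Ndufa4l2, so the calls without it are a description. Lonp1 was also called without DMOG replicate 3, and with the replicate block (adjusted p = 0.0457). Cox4i2, called with DMOG in retina RNA and not in liver RNA, had a difference of -0.28 ± 0.24 (adjusted p = 0.456), so its responses were not shown to differ.

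For roxadustat Higd1a alone had a larger response in liver RNA (0.77 ± 0.20, adjusted p = 0.0309), where 1.22% of all genes were called in this direction, and the call was lost without PBS replicate 3 or roxadustat replicate 1 or 2 of the liver RNA, or PBS replicate 1, 2 or 3 or roxadustat replicate 1 or 2 of the retina RNA (adjusted p up to 0.0657). Bnip3 was called as well without DMOG replicate 5 (0.86 ± 0.23, adjusted p = 0.0211), where 2.27% of all genes were. Ndufa4l2 had a difference of -0.13 ± 0.36 (adjusted p = 0.904, 95% interval -0.87 to 0.61). Sex, read from Xist and Y-linked genes, was uneven among the liver libraries, with 3 female and 3 male for PBS, 4 and 2 for DMOG and 1 and 5 for roxadustat. Among the retina libraries it was 3 and 3 for PBS, 2 and 4 for DMOG and 3 and 3 for roxadustat. With sex as a covariate 6 and 5 of the 9 genes were called in liver RNA with DMOG and roxadustat, where 7.45% and 2.54% of all genes were called higher. With roxadustat these 5 included Ndufa4l2 (adjusted p = 0.0351) in place of Cox4i2 (adjusted p = 0.0669).

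As a description of pattern over the 18 libraries of a tissue, which share their treatments, the genes most like Bnip3 in log2 level in liver RNA were Alkbh5 (Pearson r = 0.991), O3far1 (0.986) and Il17rb (0.986), out of 11740 genes averaging 1 FPKM or more. Bnip3l ranked 5 and Fam162a 11 in that order. In retina RNA, out of 12825 genes, the closest were Tpi1 (0.974), Pgk1 (0.973) and Pfkp (0.971), with Higd1a at rank 8 and Bnip3l at rank 10. For Ndufa4l2 they were Gpi1 (0.974), P4ha2 (0.973) and Ankrd37 (0.959) in liver RNA, and Bsg (0.928), Pfkp (0.925) and Tpi1 (0.913) in retina RNA.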

How the data were processed

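The deposited values are FPKM per gene and library, per the file headers, from 36 libraries of total RNA. The submitters' processing notes name build mm9 and the tools bcl2fastq (1.8.3), Cuffdiff (2.2.1) and TopHat2 (2). Annotation and library scaling are not given in the sources used here, and promoter sequence comes from another build, so no position was joined to a value. FPKM were turned into log2(FPKM + 0.5), which understates changes of low genes. Genes averaging 0.5 FPKM or more across a table's 18 libraries (12657 in liver RNA, 13779 in retina RNA) were fitted as 3 group means in limma 3.58.1 (R 4.3.3, statmod 1.5.0), with empirical Bayes, a mean trend, two-sided tests and Benjamini-Hochberg adjustment at 0.05. Responses were compared between tissues over all 36 libraries. The tables give no read counts, so precision is judged from the spread between libraries. The fit was tested on simulated data. Figures used Python 3.11.15 and matplotlib 3.10.9. The 10 genes are named throughout, with up to 4 genes of each further list by smallest adjusted p, set partners, and for Bnip3 and Ndufa4l2 the 3 genes closest in pattern. Members and lists were chosen with earlier results of these data known. Of the listed genes, Ahsp and Adgre1 were not matched to a row. Alternatives were other pseudocounts, filters, scalings and variance models, 2 groups per fit, a replicate block, a sex covariate and leaving out each library.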

Additional observations from a re-analysis of the deposited data

Results flagged for a closer look

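Of 58 groups of 6 libraries, 5 held a library that stood apart from the other 5 by Dixon's criterion. Chance gives about 1 in 20 for independent groups with a normal spread. The groups here share libraries, so the count is a description. In liver RNA, Higd1a was 14.1 FPKM in DMOG replicate 5 and 27.1 to 33.4 FPKM in the other DMOG libraries, and Cox8b was 0.178 FPKM in DMOG replicate 6 and listed at 0 in the others. With all others at 0, any level of Cox8b above 0 would have met the criterion. In retina RNA, Fam162a was 46.2 FPKM in DMOG replicate 2 (others 52.5 to 55.5), Higd1a was 61.3 FPKM in DMOG replicate 1 (others 47.1 to 50.2), and Cox4i1 was 849 FPKM in roxadustat replicate 6 (others 922 to 957). The response to DMOG differed between the tissues for Bnip3 by 2.00, for Bnip3l by 0.92, for Fam162a by 1.71 and for Higd1a by 1.05 on the log2 scale, larger in liver RNA. That to roxadustat differed for Higd1a by 0.77. These differences passed the test of the difference itself in limma, with adjusted p from 0.000315 to 0.0309.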

How the results depend on the processing

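The number of the 10 genes called was within 1.5 times the reported one under each alternative that kept all libraries, except for DMOG in retina RNA. There 2 calls became 0 with no filter or with a replicate block, and 1 with a filter of 5 FPKM, robust empirical Bayes, 2 groups per fit or sex as a covariate. Leaving out each library in turn gave 5 to 6 calls for DMOG, 3 to 6 for roxadustat and 0 to 4 for roxadustat against DMOG in liver RNA, 0 to 2, 4 to 6 and 3 to 5 in retina RNA, and 4 to 6 and 0 to 2 for the tissue differences of DMOG and roxadustat. The calls over all genes, given below, moved between settings as well, so these counts cannot be read on their own.

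Values that changed sign were not called in either form. With each library scaled to an equal total, roxadustat against DMOG in liver RNA gave 0.0014 for Cox4i1 and 1.76e-05 for Cox8a, and DMOG in retina RNA gave -0.012 for Lonp1. With a pseudocount of 1 the tissue difference of the roxadustat response was -0.061 for Cox4i2. Leaving out 1 library at a time gave ranges across 0 for roxadustat against DMOG in liver RNA for Cox4i1 (-0.116 to 0.0083), Cox8a (-0.111 to 0.032) and Higd1a (-0.13 to 0.11), for DMOG in retina RNA for Cox8a (-0.076 to 0.0036) and Lonp1 (-0.022 to 0.032), for the tissue difference of the DMOG response for Cox4i1 (-0.073 to 0.052, above 0 also at 0.00063, 0.0051, 0.0056 and 0.026), and for that of the roxadustat response for Cox4i1 (-0.057 to 0.0080, above 0 also at 0.00196, 0.0021 and 0.0025), Cox4i2 (-0.025 to 0.19, below 0 also at -0.017) and Ndufa4l2 (-0.22 to 0.023). The causes were not tested.

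Over all genes, the calls with DMOG in liver RNA numbered 2526 and ranged from 1655 (filter of 5 FPKM) to 4486 (without DMOG replicate 5), those with roxadustat 530 (325 to 1229), and roxadustat against DMOG 379 (62 to 2048). In retina RNA the counts were 147 (48 to 420), 323 (190 to 482) and 181 (128 to 271), and for the tissue differences 1763 (976 to 3202) and 249 (113 to 527). Scaling to an equal total moved the balance in liver RNA from 1046 higher and 1480 lower to 584 and 2687 with DMOG, from 274 and 256 to 238 and 520 with roxadustat, and from 235 and 144 to 461 and 97 for roxadustat against DMOG. It moved the tissue differences from 774 and 989 to 482 and 1604, and from 135 and 114 to 101 and 138.

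The labels do not say whether equal replicate numbers pair the libraries. Deviations of libraries with the same number correlated at -0.333 to 0.546 in liver RNA and -0.24 to 0.315 in retina RNA. Their medians were 0.043 and 0.071, against 0.010 and -0.011 for libraries with different numbers. Of 18 libraries, 7 in liver RNA and 4 in retina RNA correlated best with their own number. A weak pairing can neither be shown nor excluded from these values. With the replicate block 6, 4 and 0 genes were called in liver RNA (DMOG, roxadustat, roxadustat against DMOG), 0, 6 and 4 in retina RNA, and 5 and 1 for the tissue differences. These counts are a description, since the calls over all genes also differed between settings. The block added Lonp1 to the calls with roxadustat and for roxadustat against DMOG in retina RNA, where Bnip3 was lost, and to the tissue differences of DMOG. It ended the calls of Cox4i2 with roxadustat in liver RNA and of Cox4i2 and Cox8b with DMOG in retina RNA.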
